A study of Homo sapiens with 4 samples.

Results

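The antiviral interferon-stimulated genes and RNA sensors described here are 52 human genes chosen by gene name, and they fall into 12 nucleic acid sensors, 5 transcription factors and 35 effectors. Of these 52, 41 had a row among the 6828 genes of the deposited table. The other 11, namely IFI44, DHX58, ISG20, HERC5, CMPK2, IFITM1, IFITM2, IFITM3, IRF9, XAF1 and ADAR, were not analysed here. RNA-seq was performed on A549 cells, an epithelial line derived from a human lung adenocarcinoma, 72 h after infection with lentiviruses expressing a control short hairpin RNA (shctrl) or a short hairpin RNA against the long noncoding RNA USP2-AS1 (shUSP2-AS1), and the comparison asked which genes USP2-AS1 regulates. There were 2 biological replicates in each group, and cells with shctrl are called control cells and those with shUSP2-AS1 knockdown cells. Both groups were exposed to a lentiviral vector and expressed a hairpin, and no uninfected library was analysed, so that levels without infection are not known from these data. The libraries are of bulk RNA, in which more RNA of a gene per cell and more cells expressing it cannot be told apart.

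Cells recognise viral or misplaced double-stranded RNA through cytosolic sensors such as RIG-I and MDA5, which signal through the adaptor MAVS to the transcription factors IRF3 and IRF7 and so switch on interferon genes. Secreted interferon binds its receptor and, through JAK kinases, activates a complex containing STAT2 and IRF9 that binds the interferon-stimulated response element (ISRE) in the promoters of antiviral genes. The products of these genes include the sensors and IRF7 themselves, together with effectors that block viral entry, translation, replication and release.

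The methods list hairpins #1 and #2 against USP2-AS1 and do not state which one was sequenced, so both target sequences are shown beside that of the control hairpin, each 21 bases long.
sh-control: cctaaggttaagtcgccctcg
shUSP2-AS1#1: taatctcagcgagatgaagag
shUSP2-AS1#2: gcactcagttgtacttcttta
In hg38, the target of hairpin #1 lies at chr11:119498750-119498770 and that of hairpin #2 at chr11:119499384-119499404, both on the plus strand and inside annotated exons of USP2-AS1. USP2-AS1 (chr11:119364359-119526664) was counted with 24 and 22 reads in control cells against 2 and 7 reads in knockdown cells, and fell by 2.39 ± 0.56 (SE) on the log2 scale (adjusted p = 0.000597, limma with Benjamini-Hochberg adjustment).

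The deposited value of a gene is a normalized read count, that is, its reads in a library divided by a size factor, and fold changes are given as differences of log2(value + 1) with their standard error. A gene was called when limma gave an adjusted p below 0.05 and the log2 fold change was at least 1 in size. Reads on the listed genes ranged from 10772788 to 14120472 per library. Every listed gene had passed an adjusted p of 0.05 in the comparison the authors made of these same libraries, so a gene could have a row only if it differed, and that the 41 listed antiviral genes passed the test is not evidence about them. What can be described is their direction and the size of their changes beside those of the other genes selected in the same way. In that table of 6812 tested genes the directions were nearly balanced, with 50.6% higher and 49.4% lower at an adjusted p below 0.05, and with 16.1% called higher and 13.5% called lower.

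Of the 41 antiviral genes, 39 were higher and 2 were lower in the shUSP2-AS1 libraries at an adjusted p below 0.05. With the fold threshold, 22 of them (53.7%) were called higher, 1 was called lower and 18 were not called. Their median log2 fold change was 1.19, with a range from -1.47 to 3.29, and the median over all tested genes was 0.19. In 39 of the 41, both shUSP2-AS1 libraries lay above both shctrl libraries, which was the case for 50.6% of all tested genes, and the exceptions, UBE2L6 and ZC3HAV1, were lower in both shUSP2-AS1 libraries. The groups overlapped in only 1 of the 6812 tested genes, so their separation in a given gene is not evidence about that gene. The median value over the 41 genes was 222 and 192 in the controls and 469 and 520 in the knockdown. Setting each shUSP2-AS1 library against each shctrl library gave median log2 differences from 1.15 to 1.34, with 39 of 41 genes higher in each of the 4 pairs. That count follows from the separation of the groups and adds nothing to it.

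**Figure D1:**
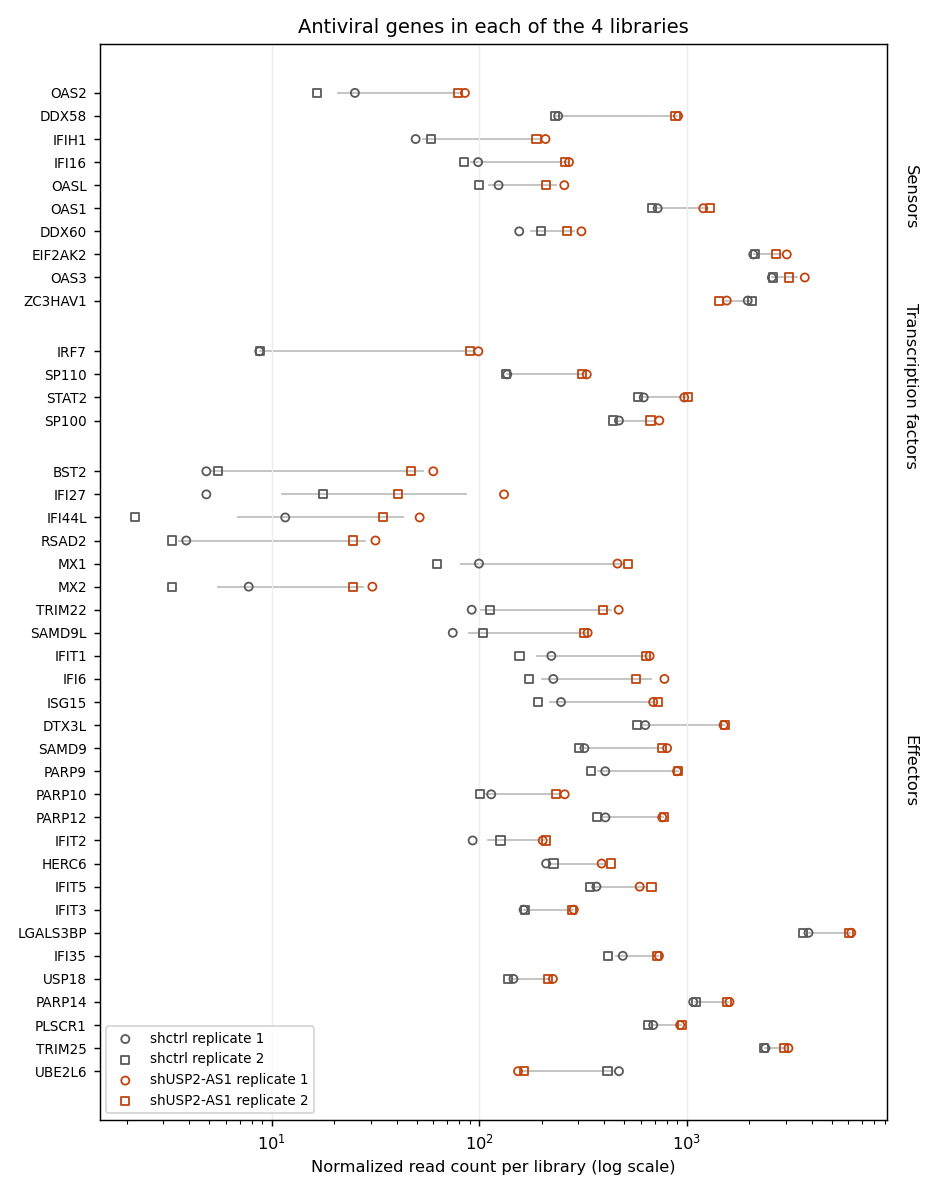
Normalized read count (x axis, log scale) of the 41 listed antiviral genes (rows, by role class and then by fold change) in the 2 shctrl libraries (grey) and the 2 shUSP2-AS1 libraries (red), with replicate 1 as circles, replicate 2 as squares and a line joining the group means. The red symbols lie to the right of the grey ones in 39 rows and to the left in ZC3HAV1 and UBE2L6.

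Among the sensors, 10 of 12 were measured, 9 were higher and 5 were called higher, with a median log2 fold change of 0.94. DDX58 encodes RIG-I, which binds RNA with a triphosphate end. Its values were 239.6 and 230.8 in control cells against 906 and 881 in knockdown cells. DDX58 rose by 1.92 ± 0.09 on the log2 scale (adjusted p = 1.99e-12, limma with Benjamini-Hochberg adjustment). In GENCODE release 44, 43.2% of its exon bases also belong to a second protein-coding gene on the same strand. The annotation used in counting was not given, so how far this affected its count is not known. IFIH1 encodes MDA5, the sensor of long double-stranded RNA. It was less abundant than DDX58 in both groups, with values of 49.3 and 58.2 in the controls and 208 and 188 in the knockdown, and it rose by 1.87 ± 0.18 (limma, adjusted p = 2.37e-08). Per kilobase of gene length, the mean shctrl level was 50.7 for DDX58 and 10.6 for IFIH1, so these RNA helicases differed in level while their fold changes lay within one standard error of the other.

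The oligoadenylate synthetases make short oligoadenylates, a second messenger, when they bind double-stranded RNA. Their 3 genes lie in a row at chr12:112906783-113011723 and differed widely in level, with mean shctrl values per kilobase of 316 for OAS3, 141 for OAS1 and 3.32 for OAS2. The fold changes ran in the opposite order. OAS2 was represented by 26 and 15 reads in control cells against 81 and 90 in knockdown cells, and rose by 1.96 ± 0.28 (limma, adjusted p = 4.17e-06). Its reads, scaled for depth, gave a ratio of 3.89 between the groups, with a 95% interval from counting error alone of 2.75 to 5.61. OAS1 had values of 723 and 676 in the controls and 1199 and 1289 in the knockdown, and its rise of 0.83 ± 0.07 was under the fold threshold. OAS3, with 2567 and 2597 in control cells against 3699 and 3090 in knockdown cells, rose by 0.39 ± 0.07 (limma, adjusted p = 3.68e-05). The 3 OAS genes therefore all rose, the weakest of them by the most. OASL, a relative without synthetase activity that assists RIG-I, had a mean of 112 ± 16.7 (SD, n = 2) in control and 234 ± 32.6 in knockdown cells and was called at 1.06 ± 0.16. This call did not hold without shctrl replicate 2 (0.90), without shUSP2-AS1 replicate 1 (0.91) or with RLE scaling (0.94).

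The other abundant sensors changed little. EIF2AK2 encodes the kinase PKR, which shuts down translation when it binds double-stranded RNA. Its values were 2089 and 2131 in the controls and 3029 and 2698 in the knockdown, a rise of 0.44 ± 0.06 (limma, adjusted p = 2.56e-06). ZC3HAV1 encodes ZAP, which binds CpG-rich viral RNA and recruits decay factors. It was the only measured sensor that fell, from 1963 and 2064 in control cells to 1556 and 1427 in knockdown cells, by 0.43 ± 0.06 on the log2 scale (limma, adjusted p = 3.98e-06). Neither gene reached the fold threshold. IFI16, a sensor of DNA rather than RNA, was called higher (98.6 and 84.6 against 270.3 and 258, 1.52 ± 0.15), and DDX60, a helicase linked to RIG-I signalling, was higher but not called (156 and 198 against 310.2 and 263, 0.70 ± 0.14).

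Of the 5 transcription factors, 4 were measured, all 4 were higher and 2 were called, with a median log2 fold change of 0.98. IRF7 drives transcription of interferon genes and is itself induced by interferon. It had the largest fold change of the 41 genes and was nearly undetected in the control cells, with 9 and 8 reads in control cells against 94 and 102 reads in knockdown cells. The rise was 3.29 ± 0.31 on the log2 scale (limma, adjusted p = 2.29e-08), and the depth-scaled ratio of its reads was 10.7, with a 95% counting interval of 6.54 to 18.8. STAT2, the subunit that gives the interferon-activated complex its transactivation domain, had values of 619 and 580 in the controls and 971 and 1007 in the knockdown. It rose by 0.72 ± 0.07 (limma, adjusted p = 7.73e-08). The nuclear body proteins SP110 and SP100 lie within the same stretch of chromosome 2. SP110 had values of 136 and 134 against 329 and 312 and rose by 1.24 ± 0.12 (limma, adjusted p = 5.12e-08), whereas SP100, with 471 and 439.6 against 736 and 667, rose by 0.62 ± 0.09 (limma, adjusted p = 2.79e-06). Of the exon bases of SP110, 17.8% overlap a noncoding gene on the other strand.

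Effectors made up the largest class, with 27 of 35 measured, 26 higher, 15 called higher, 1 called lower and a median log2 fold change of 1.27. The medians of the 3 classes, 0.94 for sensors, 0.98 for transcription factors and 1.27 for effectors, lay close together beside ranges within each class of more than 2 log2 units, and no difference between classes was tested.

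**Figure D2:**
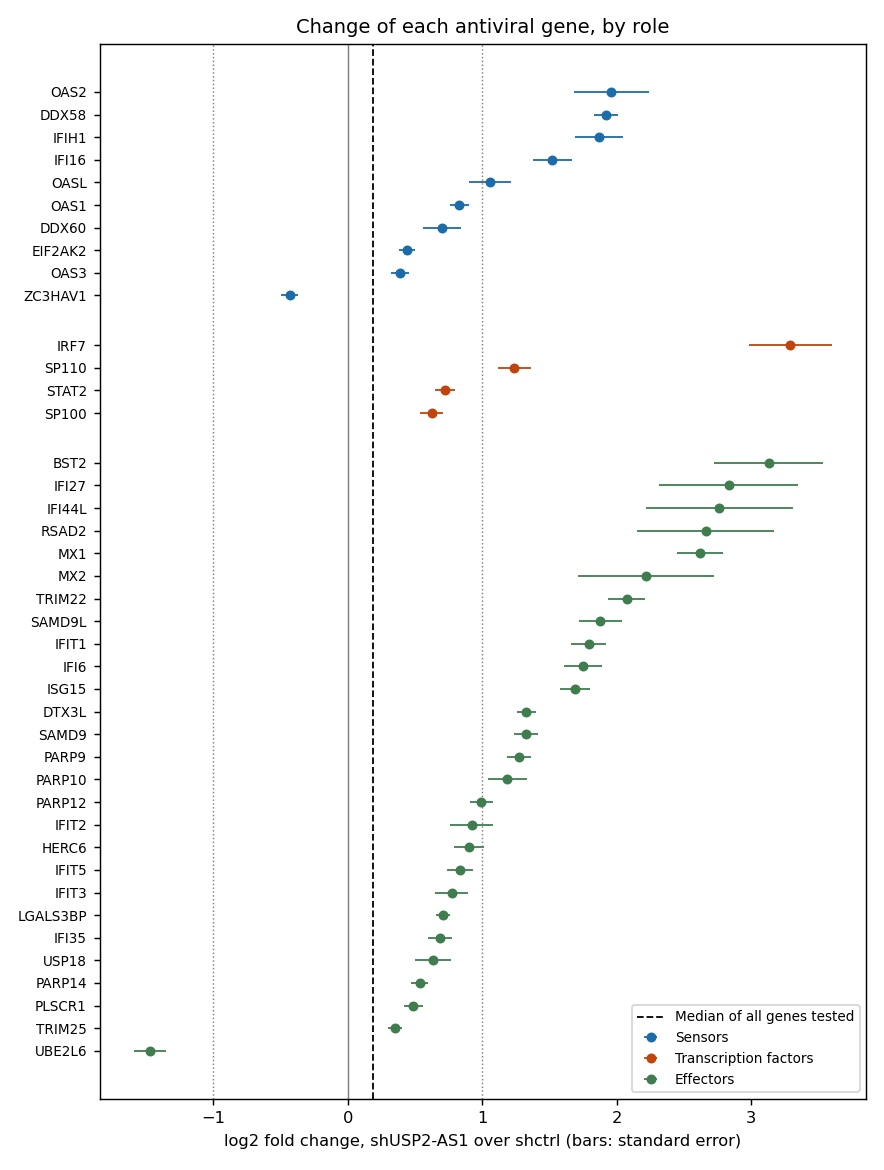
Log2 fold change of each listed antiviral gene, shUSP2-AS1 over shctrl (x axis), with its standard error as the bar, for 10 sensors, 4 transcription factors and 27 effectors (rows). Dotted lines mark the fold threshold of 1 in either direction and the dashed line the median of all tested genes, 0.19; the ranges of the 3 classes overlap between 0.62 and 1.96, and 2 points, a sensor and an effector, lie left of zero.

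The 4 IFIT genes, whose products bind RNA or translation factors and hold back viral translation, lie side by side at chr10:89283694-89420997. All 4 rose, and IFIT1 alone was called. IFIT1 had values of 222 and 156 in control cells against 661 and 632 in knockdown cells, a change of 1.79 ± 0.13, while IFIT2 (0.92 ± 0.16), IFIT5 (0.83 ± 0.09) and IFIT3 (0.77 ± 0.12) formed a group whose standard errors overlapped. Without shctrl replicate 2, IFIT2 was called as well (1.14). IFIT2 and IFIT3 share 65 and 94 exon bases with LIPA, a lysosomal lipase gene on the other strand that was itself called higher at 1.37.

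Of the 8 membrane-associated and secreted effectors, 5 were measured, all were higher and 3 were called. BST2 encodes tetherin, which holds budding virions at the cell surface. It was counted with 5 and 5 reads in the controls and 57 and 53 reads in the knockdown. BST2 had the largest change of any effector, 3.13 ± 0.40 (limma, adjusted p = 1.26e-06), and a depth-scaled read ratio of 10.3 (95% counting interval 5.37 to 22.0). IFI27, a small mitochondrial protein, varied widely between replicates of both groups, with 5 and 16 reads in control cells against 125 and 46 in knockdown cells. The change was 2.83 ± 0.52 (limma, adjusted p = 5.97e-05). It was 1.996 without shctrl replicate 1 and 1.995 without shUSP2-AS1 replicate 1, and without shctrl replicate 2 or without shUSP2-AS1 replicate 2 it was 3.67. With DESeq2 on the recovered reads, the adjusted p of IFI27 was 0.00925 with the authors' size factors and 0.0143 with its own. IFI6, an endoplasmic reticulum and mitochondrial protein, was called as well (227 and 173 against 779 and 569.6, 1.75 ± 0.14), although 23.1% of its exon bases are shared with a noncoding gene on the same strand. At the other end of the scale LGALS3BP, a secreted galectin-binding glycoprotein, was the most abundant of the 41 genes, at 3854 and 3644 in the controls and 6194 and 6062 in the knockdown. It rose by 0.71 ± 0.05 (limma, adjusted p = 6.09e-10), which was under the fold threshold, as was the change of the scramblase PLSCR1 at 0.49 ± 0.07.

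Among the ISG15 and ubiquitin genes 7 of 8 were measured, and here the directions divided. ISG15 encodes the ubiquitin-like modifier that is conjugated to proteins during infection, and its values of 247 and 192 in control cells against 688 and 722 in knockdown cells gave a change of 1.69 ± 0.11. Per kilobase of gene length its mean level was 254 in shctrl and 813 in shUSP2-AS1, so it was one of the more abundant antiviral transcripts in both groups. UBE2L6 encodes the conjugating enzyme that passes ISG15 on to its targets. Its values were 471 and 414 in the controls and 154 and 164 in the knockdown, and it fell by 1.47 ± 0.12 on the log2 scale (limma, adjusted p = 2.35e-09). The modifier and its conjugating enzyme thus changed in opposite directions. The other measured genes of this ISG15 and ubiquitin list were higher. USP18, the protease that removes ISG15 and restrains the interferon receptor, changed by 0.63 ± 0.13, and HERC6, a HECT-type ligase, by 0.90 ± 0.11, both under the fold threshold. The ligases TRIM22 (91.8 and 112 against 469 and 394, 2.07 ± 0.14) and DTX3L (630.0 and 577 against 1502 and 1528, 1.33 ± 0.07) were called higher. TRIM25, which ubiquitinates RIG-I, had values of 2390 and 2342 in control cells against 3085 and 2950 in knockdown cells and rose by 0.35 ± 0.05 (limma, adjusted p = 8.35e-06).

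The 4 PARP genes encode ADP-ribosyltransferases, some of which restrict viral replication. PARP9, the partner of DTX3L, was called (404 and 345 against 896 and 908, 1.27 ± 0.09), and so was PARP10 (114 and 101 against 258 and 234, 1.19 ± 0.14). PARP12 stood just under the threshold at 0.99 ± 0.09 and passed it without shctrl replicate 1 (1.06) or without shUSP2-AS1 replicate 1 (1.01). PARP14 was the most abundant of the 4, with values of 1073 and 1109 in the controls and 1604 and 1554 in the knockdown, and it rose by 0.53 ± 0.06 (limma, adjusted p = 3.37e-07). PARP9, DTX3L and PARP14 lie together at chr3:122527924-122730840, where PARP9 and DTX3L are transcribed away from each other and share 139 exon bases on opposite strands. Their fold changes, 1.27 and 1.33, differed by less than one standard error.

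Of the 11 remaining effectors, 7 were measured, all 7 were higher and 6 were called, with a median log2 fold change of 2.21. MX1 encodes a dynamin-like GTPase that blocks nucleocapsids, and its values were 99.5 and 62.6 in control cells against 463 and 520.3 in knockdown cells (2.62 ± 0.17). Its neighbour MX2 at chr21:41361999-41409393 was far weaker, with 8 and 3 reads against 29 and 28 reads. MX2 rose by 2.21 ± 0.50 (limma, adjusted p = 0.000461), the largest adjusted p of the 41 genes, and its depth-scaled read ratio was 4.83 (95% counting interval 2.51 to 10.2). RSAD2 encodes viperin, which makes a chain-terminating nucleotide, and was counted with 4 and 3 reads in the controls and 30 and 28 in the knockdown. It rose by 2.66 ± 0.51 (limma, adjusted p = 9.49e-05), with a read ratio of 7.72 (3.52 to 20.1). IFI44L, a gene widely used as a marker of interferon exposure, gave 12 and 2 reads in control cells against 49 and 39 in knockdown cells. IFI44L rose by 2.76 ± 0.55 (limma, adjusted p = 0.000132), with a read ratio of 5.86 (3.31 to 11.2). Its change was 1.77 without shctrl replicate 2 and 3.75 without shctrl replicate 1. These values rest on few reads, and the standard errors of MX2, RSAD2 and IFI44L, from 0.50 to 0.55, compare with 0.09 for PARP9. The paired genes SAMD9L and SAMD9, both restriction factors of poxviruses at chr7:93099513-93148385, were called higher at 1.88 ± 0.16 and 1.32 ± 0.09, and IFI35 was higher at 0.68 ± 0.09 without being called.

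Fold change and control level were linked across the genes. The 7 genes with fewer than 50 reads in both shctrl libraries, which were IRF7, BST2, IFI27, IFI44L, RSAD2, MX2 and OAS2, were all called higher, with a median log2 fold change of 2.76. The other 34 had a median of 0.91, with 15 called higher and 1 called lower. Weak genes needed a large change to enter the table at all, so the count of 7 of 7 follows in part from how the table was made. The same dependence was present in the whole table. Of all tested genes with a mean shctrl value under 300, 45.9% were called higher, with a median of 0.91, and of those at 300 or more, 4.82% were called higher, with a median of -0.33. Among the antiviral genes, 19 of 24 (79.2%) were called higher under 300, with a median of 1.83, and 3 of 17 (17.6%) at 300 or more, with a median of 0.68. These ranges do not match the levels exactly, since the median shctrl value at 300 or more was 604 for the antiviral genes and 1088 for all genes. The control level is also the denominator of the fold change, and the weakest genes passed the filter on the mean only through the knockdown libraries.

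**Figure D3:**
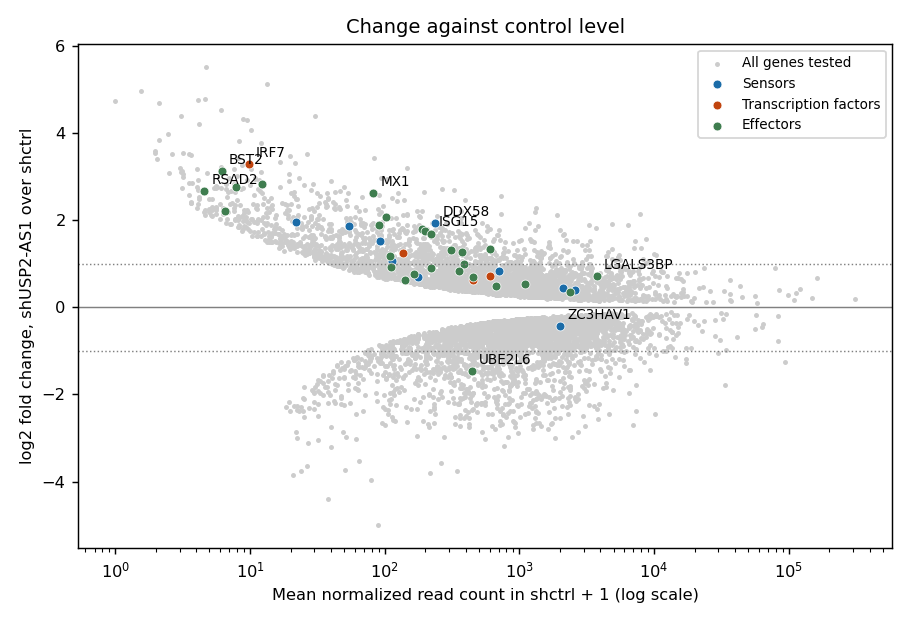
Log2 fold change, shUSP2-AS1 over shctrl (y axis), against the mean shctrl value plus 1 (x axis, log scale) for the 6812 tested genes (grey) and the 41 antiviral genes (coloured by role class); dotted lines mark the fold threshold. The empty band around zero is where genes had no row, and it widens to the left, where IRF7, BST2 and RSAD2 lie; UBE2L6 and ZC3HAV1 are the antiviral genes below zero.

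Replicates of one group were compared over the same genes. In the shctrl pair the median absolute log2 difference between libraries was 0.155 over the 41 antiviral genes and 0.0865 over all tested genes, and in the shUSP2-AS1 pair it was 0.103 and 0.0839. Within shctrl, 27 of 41 antiviral genes were lower in replicate 2, with a median difference of -0.09, beside 50.2% of all tested genes, and within shUSP2-AS1, 29 of 41 were lower in replicate 2, with a median difference of -0.07, beside 46.0% of all tested genes. The median log2 fold change between the groups was 1.19. Every listed gene had been selected for a difference between these groups. A change larger than that between replicates was therefore largely fixed in advance and is not evidence about these genes.

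The ISRE was searched for in the promoters. The list holds genes known to respond to interferon, so a high share of matches could be foreseen from the list. That share says nothing about the knockdown. Promoters came from RefSeq (GRCh38.p14) and ran from 250 bases before to 50 after each gene's start. The motif was GAAANNGAAA on either strand, and 42 of the 52 genes had a promoter entry. A match was present in 26 of the 42 (61.9%, exact 95% interval 45.6% to 76.4%) and in 1195 of 27305 genes of the whole reference (4.38%). Among other genes of the deposited table with an entry, the share was 3.64% of 5192. Of the 33 measured antiviral genes with an entry, 21 had a match, with a median log2 fold change of 1.32 and a range from 0.39 to 3.13, and 12 had none, with a median of 0.78 and a range from -1.47 to 1.92. The ranges overlapped. By class, the motif was found in 7 of 7 membrane-associated effectors, 3 of 3 IFIT genes, 3 of 3 PARP genes, 3 of 6 ISG15 and ubiquitin genes, 6 of 10 remaining effectors, 4 of 9 sensors and 0 of 4 transcription factors, and no difference between classes was tested. DDX58, listed in RefSeq under its newer name RIGI, had no match in this window. MX2, OAS2, OASL, IRF7, IFIT2, USP18, PARP10 and TRIM22 had no promoter entry.

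The following 30-base stretches of promoters show the match in capitals, each read 5′ to 3′ on the strand that carries GAAA. Shown are a sensor with a large change, sensors with a small one, an IFIT gene, ISG15, membrane-associated and secreted effectors, and the divergent pair. No stretch of the remaining effectors, such as MX1, is shown.
IFIH1, chr2:162318686-162318715, minus strand: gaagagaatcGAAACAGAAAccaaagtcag
DDX60, chr4:168318786-168318815, minus strand: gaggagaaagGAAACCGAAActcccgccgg
OAS3, chr12:112938452-112938481, plus strand: agccgggcggGAAAACGAAAccagaaatcc
IFIT1, chr10:89392510-89392539, minus strand: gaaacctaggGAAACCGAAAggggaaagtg
ISG15, chr1:1013380-1013409, plus strand: tcggGAAAGGGAAACCGAAActgaagccaa
BST2, chr19:17405735-17405764, minus strand: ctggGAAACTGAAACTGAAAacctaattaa
LGALS3BP, chr17:78979962-78979991, minus strand: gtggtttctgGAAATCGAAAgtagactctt
PARP9 and DTX3L, chr3:122564322-122564351, plus strand: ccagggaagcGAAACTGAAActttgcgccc
PARP9 and DTX3L hold a single match in common, which spans the start of DTX3L, and it counts for both genes. ISG15 and BST2 hold overlapping matches, so that 3 GAAA blocks stand in a row. OAS3 and IFIH1 both carry a match just before the start, and their log2 fold changes were 0.39 and 1.87. A match is a description of the sequence and not a measured binding site.

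The other steps of the pathway were read from lists of genes by function. Of 9 interferon genes 1 was measured, IFNE, an interferon of epithelia, with 23 and 26 reads in the controls and 65 and 83 in the knockdown, and it was called higher at 1.45 ± 0.27 (limma, adjusted p = 6.00e-05). The 8 other interferon genes were not analysed here. Of 9 receptor chains and JAK kinases only JAK1 was measured, at -0.15 ± 0.05. IRF3, which acts upstream of interferon, was lower at -0.72 ± 0.07 and was not called.

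Of 15 adaptors and kinases between the sensors and interferon, 7 were measured, 4 higher and 3 lower. TLR3, the endosomal sensor of double-stranded RNA, was called higher with 29 and 19 against 70 and 59 reads (1.32 ± 0.29), and CGAS, the cytosolic DNA sensor, was called lower, from 248 and 253 to 108 and 140.0 (-1.02 ± 0.15). The kinase TBK1, which phosphorylates IRF3, was also lower, at -0.37 ± 0.08, without reaching the fold threshold. Of 17 negative regulators, 10 were measured, 5 higher and 5 lower, and SOCS1, an inhibitor of JAK kinases that interferon induces, was the only one called, with 13 and 10 against 41 and 42 reads (1.68 ± 0.36).

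Other interferon-stimulated genes lay near the whole table in direction. Of 31 listed by function, 16 were measured, and 7 were higher and 9 lower, with a median log2 fold change of -0.34. Of the 16, 12.5% were called higher, beside 16.1% of all tested genes, of which 50.6% were higher at an adjusted p below 0.05. The 16 had a median shctrl value of 716, beside 200 for the antiviral genes. All tested genes with a mean shctrl value of at least 300 had a median log2 fold change of -0.33. No difference between these lists was tested. HELZ2 (1.57 ± 0.07) and TRANK1 (1.83 ± 0.09) were called higher, and APOBEC3B, a cytidine deaminase, and TOR1B, a torsin ATPase, were called lower at -2.45 ± 0.18 and -1.54 ± 0.11. APOBEC3B fell from 253 and 215 in control cells to 44.2 and 39.6 in knockdown cells. Of 17 genes more strongly tied to interferon gamma, 4 were measured. The guanylate-binding proteins GBP2 (2.58 ± 0.15), GBP1 (2.50 ± 0.19) and GBP3 (1.65 ± 0.15) were called higher, and the adhesion molecule ICAM1 was called lower at -2.12 ± 0.16. All 4 had a mean shctrl value under 300, a range in which 45.9% of all tested genes were called higher.

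**Figure D4:**
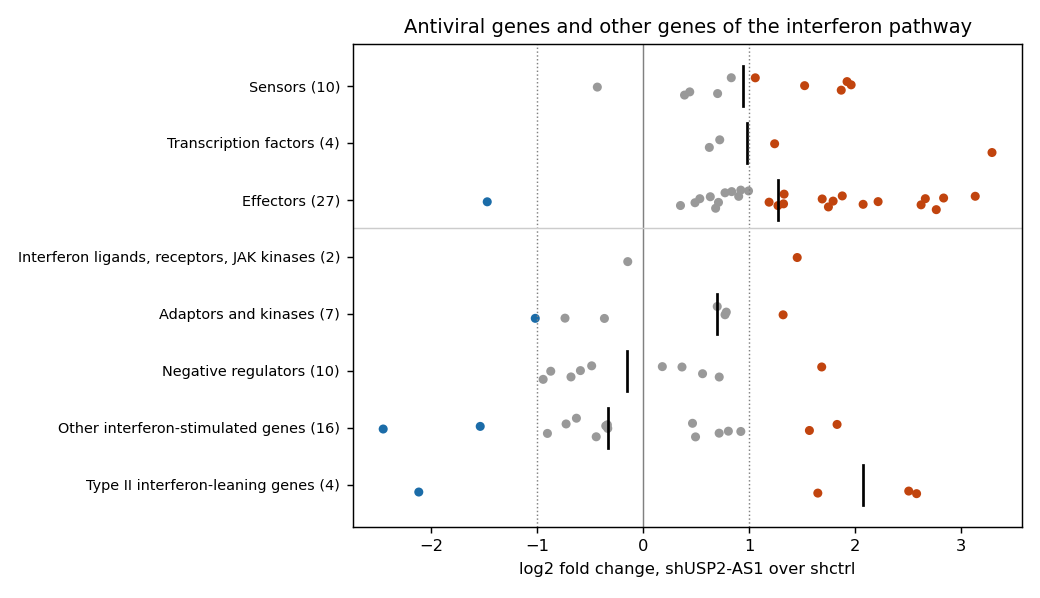
Log2 fold change, shUSP2-AS1 over shctrl (x axis), of the measured genes of each list (rows, number of genes in brackets), with genes called higher in red, called lower in blue and not called in grey, the median of lists of 4 or more genes as a black bar and the fold threshold as dotted lines. The 3 antiviral classes lie almost wholly right of zero, and the lists of negative regulators and other interferon-stimulated genes lie on both sides.

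The 41 antiviral genes included 16 that lie beside another one within 200 kb, at 6 loci. Of the 5 other listed genes within that distance, 1 (LIPA) was called higher and 0 lower. DDX54, next to the OAS genes, was at -0.45, and CAB39, next to SP110 and SP100, at 0.25. Of the 41 genes, 17 share exon bases with another annotated gene, and since the strand setting used in counting was not given in the sources used here, reads of a gene and of its antisense neighbour cannot be told apart at those bases.

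The label of the cells was checked with marker genes. Of 6 epithelial markers 4 were measured, and KRT8, a simple-epithelium keratin, ranged from 48220 to 87504 across the libraries. KRT18 was called lower at -1.05 ± 0.05, KRT8 (-0.77 ± 0.06) and KRT7 (-0.49 ± 0.06) were lower without being called, and KRT19 was higher at 0.75 ± 0.06 without being called. The 7 leukocyte and 4 endothelial markers were not analysed here. Of 6 fibroblast markers 2 were measured and both were called higher, COL1A1 at 1.05 ± 0.10 and LUM with 2 and 1 against 24 and 18 reads. Their part in the antiviral changes was not tested.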

How the data were processed

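RNA-seq was performed on poly(A) RNA of A549 cells in 2 libraries per group. Per the submitters' processing notes, HISAT2 (version 2.0.5), featureCounts (version 1.5.0-p3) and DESeq2 (version 1.20.0) were used with hg38. Their settings and the annotation are not given in the sources used here. For each gene, the authors deposited 1 signal value per library, obtained by dividing its reads by that library's size factor, together with the gene length and the fold changes and p-values of their own comparison, which were not used. Columns scr and sh216 were assigned to shctrl and shUSP2-AS1 by the table's heading and to replicates by number.

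All values (100% per library, within 0.1 of a read) were whole multiples of 1 read, worth 0.966, 1.10, 1.05 and 0.880, so reads could be recovered. They are counts on the listed genes, not whole libraries. The 6812 genes (of 6828) whose mean reached 10 were fitted with limma (version 3.58.1, R 4.3.3; lmFit, eBayes with trend) on log2(value + 1), with Benjamini-Hochberg adjustment over all of them. Alternatives were other scalings (TMM, RLE, upper quartile), filters, a pseudocount of 0.1, a replicate block, edgeR (version 4.0.16) and DESeq2 (version 1.42.0) on recovered reads, other fold thresholds, each library left out and other motif lengths. The scripts were tested on simulated data. P-values of limma rest on the spread between 2 libraries per group, moderated toward a trend fitted over all tested genes. For a gene that varies more than most, this makes the p-value smaller than its own spread would. All tested genes had already been selected for a difference between these same libraries. The adjustment over them therefore does not limit the share of false calls, and the trend was fitted on genes so selected. The adjusted p-values given here add no evidence that a gene differed beyond that selection. Counting intervals cover counting error only.

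The antiviral genes and the other lists were chosen with earlier results of these data known. Full statistics are given for the 3 genes of highest mean value and the 3 of largest change in each role class, for genes under 50 reads in every library, and for the called genes of each pathway list. All other antiviral genes are named with shorter statistics. Pathway, marker and neighbouring genes named without a call were chosen after their values were seen. Promoters and names were taken from RefSeq and exons from GENCODE release 44. Some genes of the pathway lists are not reported here.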

Additional observations from a re-analysis of the deposited data

How the results depend on the processing

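The 18 antiviral genes given with full statistics kept their direction and their call in all 257 values from the alternatives that kept the fold threshold. Their direction was fixed in the fits without 1 library, as the groups did not overlap in these genes. Leaving out 1 library moved the log2 fold change of IFI27 to between 1.995 and 3.67 and that of IFI44L to between 1.77 and 3.75. The count called higher, 22 in the analysis reported, ranged from 15 to 23 where a fold threshold was used. It was 16 with at least 10 reads in every library and 15 with a mean value of at least 100, as these filters left 35 and 34 of the 41 genes, and 18 in a test against a 2-fold change, where SP110 (adjusted p = 0.182), PARP10 (0.453), OASL (1) and MX2 (0.0811) lost their calls. With no fold threshold 39 were higher and 2 lower. The median log2 fold change of 1.19 became 1.07 with RLE scaling and 1.07 with DESeq2 and its own size factors, which shifted the median of all genes by -0.118 and -0.115, and 0.92 and 0.91 with the filters on reads and on the mean. Leaving out each library in turn gave 22 to 23 called higher, 1 called lower and medians from 1.12 to 1.25, with the lone library assumed to vary like those of the other group. OASL lost its call at log2 fold changes of 0.94 with RLE scaling and with DESeq2 and its own size factors, 0.90 without shctrl replicate 2 and 0.91 without shUSP2-AS1 replicate 1. PARP12 was called at 1.05 with upper quartile scaling, 1.06 without shctrl replicate 1 and 1.01 without shUSP2-AS1 replicate 1, and IFIT2 at 1.14 without shctrl replicate 2. In these fits none of the antiviral genes tested changed direction. Where a library was left out the direction could not change, since the groups overlapped in none of the 41 genes. With the replicate number as a block, 22 were called higher and 1 lower, with a median of 1.19. The correlation of same-numbered libraries' deviations was -0.04, so the numbers were not taken to pair the libraries. The share of promoters with a match was 66.7% with the shorter motif GAAANNGAA (9.86% of all genes) and 50% with a longer one (0.949%). Depth limits the 7 weak genes most, whose standard errors had a median of 0.50 beside 0.10 for the other 34.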
